A study of Gallus gallus with 9 samples.

Results

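In the chick dorsal mesentery, 148 genes were expressed at embryonic day 8 (E8) and at E16 but stood at least 2.5-fold lower at E12 than at both of these stages. They were chosen from 24356 genes in a table of RNA-seq read counts, of which 14172 reached 1 CPM (the gene's share of a library's gene counts, scaled so that the total is the same in every library) in 3 or more of the 9 libraries. CPM were scaled with TMM factors, which set the libraries on a common scale by their typical gene, and were averaged over the 3 libraries of each stage. A gene was taken when its mean was at least 10 CPM at E8 and at E16 and its E12 mean was at most the E8 mean and the E16 mean divided by 2.5. These levels chose the genes, so every difference between E12 and another stage is given as a description, without a test. All 148 passed the filter on low counts of the statistical fit, which tested 15506 genes. CPM are not divided by gene length, so levels do not rank genes against each other. Median levels over sets of genes only describe each set.

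The samples were wild-type White Leghorn embryos at E8, when looping of the small intestine begins, at E12, when it is under way, and at E16, when it is complete. Mesentery was freed of the intestinal tube and the superior mesenteric artery, and each of the 3 libraries of a stage held tissue pooled from 3 embryos. Different numbers thus stand for different pools, and the spread between libraries of a stage is the spread between pools. In bulk tissue, fewer cells of a type and less RNA per cell cannot be told apart.

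The dorsal mesentery is a thin sheet of connective tissue, covered by mesothelium, that ties the gut tube to the body wall and carries its vessels, nerves and lymphatics. During development the gut tube elongates faster than the mesentery to which it is attached. The mesentery is stretched, the tube is compressed, and the tube buckles into loops whose size depends on the stiffness and growth of the mesentery. Elastic fibres, made of an elastin core on a scaffold of fibrillin microfibrils, are among the structures that give such tissue its stiffness. The count table identifies genes by Ensembl ID without symbols, so none of the 148 genes is assigned to these structures or to any cell type here, and the labelled tissue was not checked against its markers.

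The median gene stood near its own mean over E8 and E16 at both of these stages and lower at E12. The rule and the scaling to that mean favour this course, so it is given as a description. Single genes differed between E16 and E8 by -1.29 to 1.35 log2 units. Each gene was expressed as a percentage of its own mean over E8 and E16. The median gene stood at 98.4%, 99.2% and 98.2% in E8 replicates 1, 2 and 3. At E12 the median was 41.5%, 26.8% and 22.3% in replicates 1, 2 and 3. At E16 it was 110.3%, 107.5% and 84.8%. The E8 libraries were alike, whereas E12 replicate 1 stood above the other E12 libraries and E16 replicate 3 below the other E16 libraries. Over the 9311 genes that reached 10 CPM at both E8 and E16, the corresponding medians lay between 95.98% and 103.7% in all 9 libraries, a range that TMM scaling fixes by placing the typical gene of each library at a common level. The dip is therefore given relative to the typical gene.

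**Figure D1:**
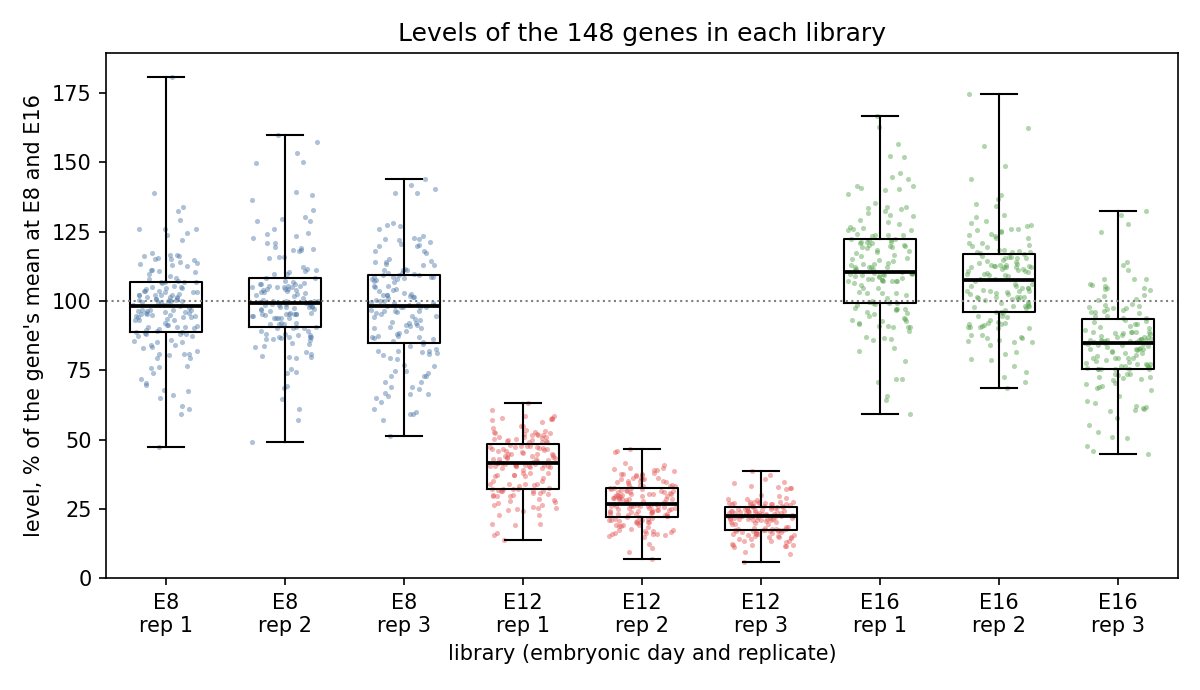
Level of each of the 148 genes in each library, as a percentage of the gene's own mean over E8 and E16. Points are genes, boxes give the quartiles and the median, and whiskers reach the lowest and highest gene. The 3 E12 medians, from 22.3% to 41.5%, lie below the lowest median of the other libraries, 84.8% in E16 replicate 3.

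In stage means, the 148 genes had a median of 28.1 CPM at E8 (range 10.02 to 838), 9.004 CPM at E12 (range 1.99 to 303) and 30.8 CPM at E16 (range 10.2 to 1346). The E8 mean exceeded the E12 mean by a median of 3.09-fold and at most 11.4-fold. The E16 mean exceeded the E12 mean by a median of 3.16-fold and at most 7.76-fold. Together the genes took 0.783%, 0.804% and 0.779% of the reads in genes in the E8 libraries, 0.290%, 0.175% and 0.152% in the E12 libraries, and 0.807%, 0.765% and 0.634% in the E16 libraries. All 3 E12 values lay below the other 6 values for each of the 148 genes, which the rule favours, and for 15.5% of all tested genes. The lowest read count behind any of these values was 205 at E8, 28 at E12 and 167 at E16, and the median count was 856, 229.5 and 722.5 in the same stages, so the low E12 values were not near the detection limit.

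Most dips were close to the threshold. The smaller of the 2 folds, which decides membership, had a median of 2.84. It lay between 2.5 and 3 for 95 genes (64.2%), between 3 and 4 for 38, between 4 and 5 for 7, and at 5 or more for 8, with 6.49 as its highest value. The 5 genes just inside the threshold had folds of 2.5 to 2.51, and the 5 just outside had 2.486 to 2.497. The 8 deepest dips had E8 means of 13.6 to 106.6 CPM, E12 means of 1.99 to 18.6 CPM and E16 means of 11.9 to 98.5 CPM.

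Dips of this size at E12 were not balanced by peaks. Under the mirrored rule, with an E12 mean of at least 10 CPM and at least 2.5-fold above both other stages, 18 genes were found. With total counts in place of TMM factors the numbers were 267 low and 9 high at E12, so the imbalance had the same direction under that scaling. The same rule applied to the other stages found 263 genes low and 146 high at E8, and 181 low and 287 high at E16. A gene that rises or falls steadily over the 3 stages can be highest or lowest only at E8 or E16. The order of the stages thus favours larger numbers there than at E12, and the comparison between stages is only a description. The number of genes high at E12 was below that at either other stage with TMM factors, with total counts only (241 at E8 and 274 at E16) and with any 1 library omitted. The rank of the number low at E12 was not settled. It was the highest of the 3 stages with total counts only, at 267 against 177 at E8 and 182 at E16. Without E12 replicate 1 it was 319, above the 159 at E16 and below the 328 at E8.

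The E12 libraries differed among themselves in these genes. Replicate 1 was the highest E12 library for 133 of 148 genes (89.9%) and replicate 3 the lowest for 122 (82.4%). Among the 9311 genes that reached 10 CPM at E8 and E16, replicate 1 was highest for 42.5% and replicate 3 lowest for 31.7%. The E16 libraries differed too, with E16 replicate 3 the lowest for 126 members (85.1%), against 40.3% of the 9311 genes. The level in E12 replicate 1 was 1.62 times the mean of E12 replicates 2 and 3 for the median member (range 0.641 to 5.40), against 1.00 times for the median of the 9311 genes. The median coefficient of variation of the 148 genes was 9.92% at E8, 32.3% at E12 and 17.8% at E16, against 7.34%, 14.9% and 10.1% for the 9311 genes. Set alone against the E8 and E16 means, E12 replicate 1 passed both folds for 42 genes (28.4%), E12 replicate 2 for 131 and E12 replicate 3 for all 148.

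The left-out libraries gave the same order. When the genes were chosen without E12 replicate 1, 319 met the rule, and 35 of these passed both folds in replicate 1 itself, although 313 were below both other stage means there. Of 131 genes chosen without E12 replicate 2, 105 passed both folds in that library and 130 were below both means. Of 83 genes chosen without E12 replicate 3, 82 passed in it and all 83 were below both means. The median smaller fold in the left-out library was 1.78 for replicate 1, 3.28 for replicate 2 and 4.34 for replicate 3. The left-out library was scaled together with all 9 libraries, but the stage means were scaled without it. These folds and pass counts thus set values from separate scalings against each other. Of the 9311 genes that reached 10 CPM at E8 and E16, 29.2%, 36.3% and 36.1% were below both means in replicates 1, 2 and 3. The E8 and E16 means in this comparison are those that chose the genes, so it describes the left-out library and supports nothing further. Under the strictest reading, with every E12 library at least 2.5-fold below each of the other 6 libraries, 17 genes were left, with smaller folds of 3.09 to 6.49.

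**Figure D2:**
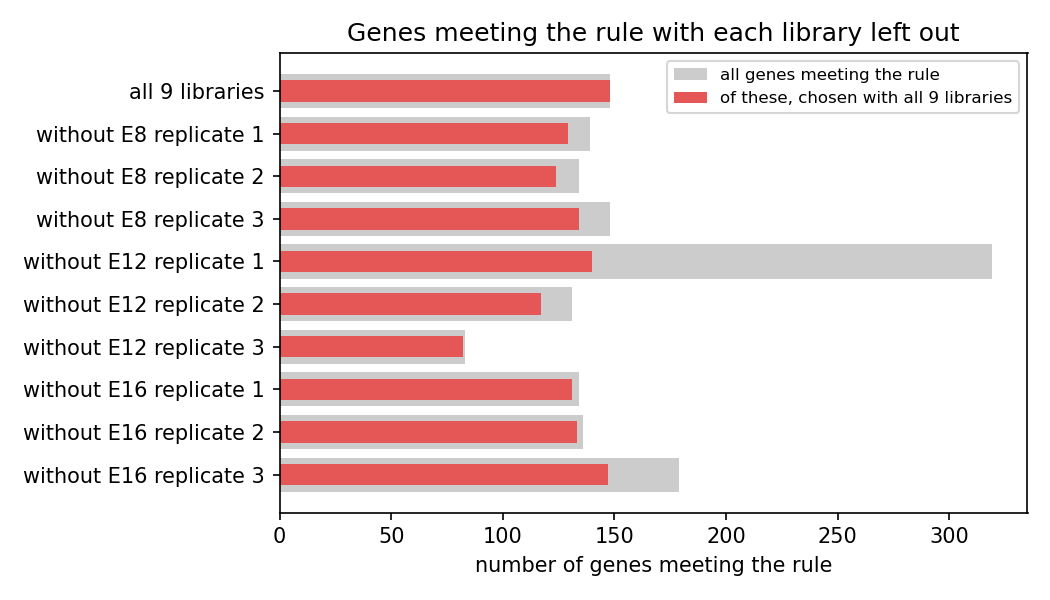
Number of genes that met the rule with all 9 libraries and with any 1 library omitted. Grey bars count all genes that met the rule and red bars those among the 148. The number ranged from 83 without E12 replicate 3 to 319 without E12 replicate 1.

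The share of reads outside annotated features moved with these levels. In E8 libraries it averaged 20.04% ± 0.32, in E12 libraries 13.7% ± 2.79 and in E16 libraries 19.3% ± 0.95 (SD, n = 3 each). Within E12 it was 16.6%, 11.03% and 13.5% in replicates 1, 2 and 3, and within E16 it was 20.2%, 19.6% and 18.3%. Replicate 1 had the highest share and the highest member level at E12, and E16 replicate 3 had the lowest of both at E16. The order was not complete, since E12 replicate 2 had the lowest share while replicate 3 had the lowest member level. Within E8 the order ran the other way over a narrow range. Replicate 3 had the highest share (20.4%) and the lowest member median (98.2%) there, and replicate 2 the lowest share (19.8%) and the highest median (99.2%). The part of this library property in the dip was not tested, and it cannot be told apart from the stage across these libraries. Reads counted in genes numbered 29.62, 30.62 and 30.11 M (mega) in the E12 libraries, against 22.96 to 29.88 M in the E8 and E16 libraries. They made up 66.5%, 68.2% and 68.4% of all reads in E12 replicates 1, 2 and 3, against 63.4% to 64.8% at E8 and E16. Within E12 this order was the reverse of that of the member levels, which did not hold within E8 or E16. TMM factors were 1.01, 0.86 and 0.92 at E12, against 0.96 to 1.12 in the E8 and E16 libraries. Genes with at least 1 count numbered 18724, 18045 and 18267 at E12, against 18439 to 19173 in the E8 and E16 libraries. The part of these properties in the dip was not tested.

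**Figure D3:**
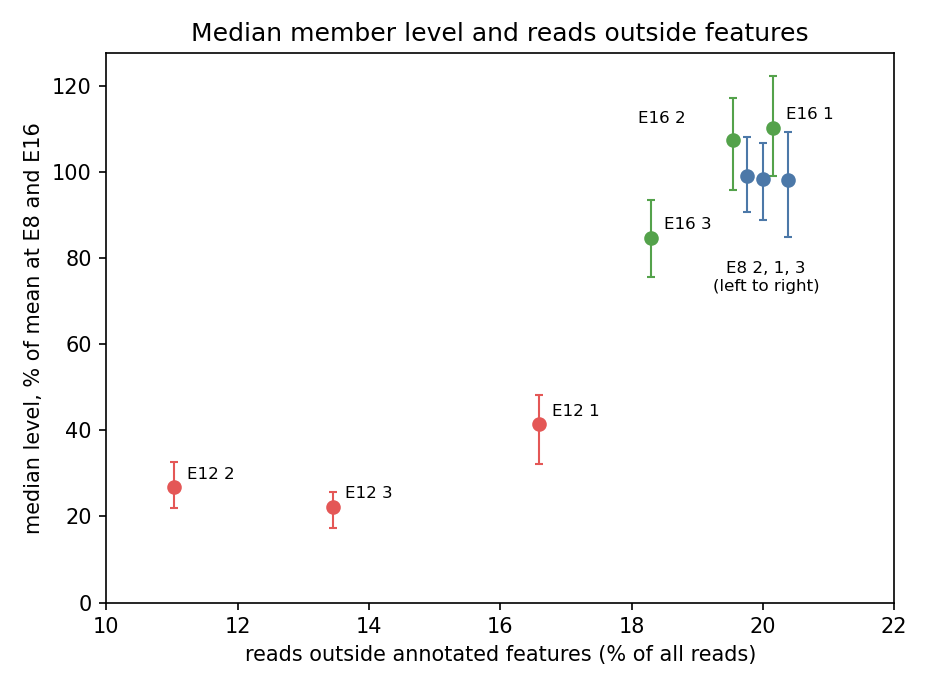
Median level of the 148 genes in each library, as a percentage of the mean over E8 and E16, against the percentage of all reads outside annotated features. Bars span the quartiles over genes. The 3 E12 libraries, at 11.03% to 16.6% of reads outside features, lie apart from the other 6, at 18.3% to 20.4%.

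Whether the genes returned to their E8 level by E16 was asked by comparing E16 with E8. The rule does not fix this ratio, but it uses both means, and a gene whose E16 and E8 means lie far apart meets the smaller fold less easily. The share of members called is therefore shaped by the choice of genes and is read as a description. All 9 libraries were fitted by the quasi-likelihood method of edgeR, and p-values were adjusted (Benjamini-Hochberg) over the 15506 genes. The stages share 1 estimate of the spread, so the spread at E12 enters this comparison. At E12 the median coefficient of variation was 32.3% in the members and 14.9% in the 9311 genes. Its part in the share called was not tested. At an adjusted p under 0.05, 10 members were higher and 9 lower at E16, where 22.9% of all tested genes were higher and 26.4% lower. These 19 genes are 12.8% of the 148, against 49.2% of all tested genes and 48.5% of the genes that reached 10 CPM at both stages. The median log2 fold change of E16 against E8 was 0.02 for the members (quartiles -0.15 and 0.27) and -0.07 for all tested genes. The median absolute log2 fold change was 0.24 in the members and 0.39 in the 9311 genes at 10 CPM or more at both stages. Their median standard errors were 0.21 and 0.15. The 9311 genes were not matched to the members in level. The E16 and E8 values did not overlap for 35 members (23.6%), against 63.6% of all tested genes.

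The call count changed with the libraries fitted. In a fit of only the E16 and E8 libraries, 41 members were called (27.7%), 29 higher and 12 lower, against 55.2% of all genes tested in that fit. Without E12 replicate 1, 38 were called (25.7%), 26 higher and 12 lower, against 53.7% of all genes. Without E12 replicate 2, 19 were called (12.8%, against 49.8% of all genes). Without E12 replicate 3, 23 were called (15.5%, against 48.3% of all genes). With total counts in place of TMM factors, 8 members were higher and 13 lower at E16 (14.2% called, against 52.5% of all genes), and all tested genes together had a median log2 fold change of -0.24. In each of these fits the share of members called stayed below the share of all genes called, which the choice of the genes favours.

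A gene that misses the threshold is not shown to be equal at E16 and E8, so intervals were examined as well. For 114 members (77%) the 95% interval of the log2 fold change lay within 1 unit of 0, that is, within a doubling or halving. This held for 71.3% of the 9311 genes that reached 10 CPM at both stages and for 50.7% of all tested genes. The fold change was at least 1 unit in either direction for 8 members (5.41%), against 25% of all tested genes and 12.2% of the 9311. In the members it spanned -1.29 to 1.35. The rule disfavours genes whose E16 and E8 means lie far apart, so these shares are shaped by the choice and describe the members.

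The share called between E16 and E8 was lower where the smaller fold was larger. Among the 9311 genes, it was 58.5% of the 6163 whose smaller fold was under 1, 35.4% of 1948 between 1 and 1.5, 21.5% of 771 between 1.5 and 2, 14.6% of 281 between 2 and 2.5, and 12.8% of the 148. A smaller fold under 1 means that the E12 mean was not below both other means. The median absolute log2 fold change was 0.47, 0.29, 0.25, 0.22 and 0.24 in the same order. The median standard error was 0.15, 0.15, 0.18, 0.20 and 0.21. The smaller fold is itself reduced when E16 and E8 are far apart. How much of the decline comes from these properties was not tested. The same rule also gave sets at the other stages. Of the 263 genes low at E8, 47.1% were called in E16 against E12, beside 53.5% of all tested genes. Of the 181 genes low at E16, 33.7% were called in E12 against E8, beside 52.2% of all tested genes. Both of these comparisons set E12 against a neighbouring stage, whereas E16 against E8 leaves E12 between its stages. The differences in share between the sets were not tested.

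**Figure D4:**
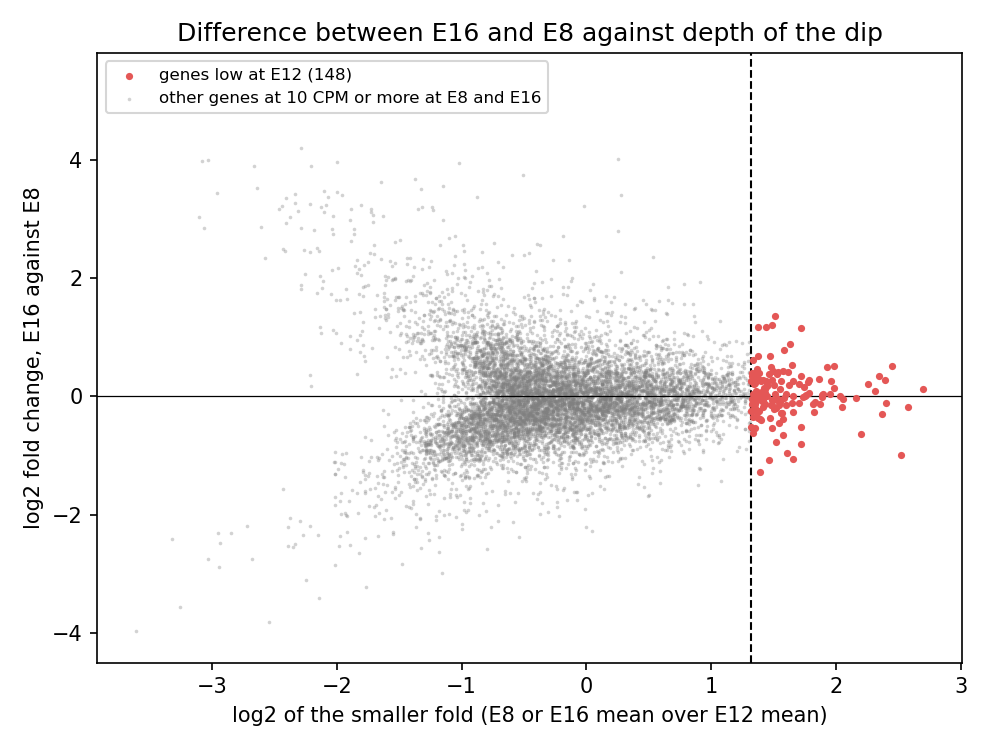
Log2 fold change of E16 against E8 plotted against the log2 of the smaller fold (the lower of the E8 and E16 means over the E12 mean) for 9311 genes. Red points are the 148 genes to the right of the dashed threshold at 2.5-fold and grey points all others. The members span -1.29 to 1.35 on the vertical axis.

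Members called in E16 against E8 were low at E12 in both directions, as the rule requires. The 10 genes called higher at E16 had medians of 23.2 CPM (E8), 8.56 CPM (E12) and 44.0 CPM (E16). The 9 genes called lower at E16 had medians of 60.3 CPM (E8), 10.1 CPM (E12) and 30.9 CPM (E16). The 129 genes not called had medians of 27.6 CPM (E8), 8.97 CPM (E12) and 29.8 CPM (E16). The rise from E12 to E16 was a median of 5.76-fold in the first set, 3.06-fold in the second and 3.14-fold in the genes not called. The E8 mean exceeded the E12 mean by a median of 2.79-fold, 5.96-fold and 3.08-fold in the same order. These folds are a description, because the rule used the means and the sets were split by E16 against E8.

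The largest difference with a higher E16 level was that of ENSGALG00000008907. It had 23.6, 19.5 and 24.2 CPM at E8, 9.59, 7.63 and 6.32 CPM at E12, and 64.6, 64.4 and 41.9 CPM at E16, in replicates 1, 2 and 3 of each stage. Every E16 library was above every E8 library, and replicate 3 was the lowest at E16. The log2 fold change of E16 against E8 was 1.35 (SE 0.20, edgeR adjusted p of 0.00011).

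ENSGALG00000013225 was also higher at E16. It had 15.0, 14.8 and 14.3 CPM at E8, 6.38, 5.16 and 4.19 CPM at E12, and 33.6, 42.4 and 25.4 CPM at E16. The E8 libraries were nearly identical and the E16 libraries again did not overlap them. Its log2 fold change of E16 against E8 was 1.20 (SE 0.20, edgeR adjusted p of 0.00029).

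The largest difference with a lower E16 level was that of ENSGALG00000009568. It had 111, 127 and 115 CPM at E8, 22.9, 17.3 and 15.0 CPM at E12, and 49.3, 57.0 and 38.2 CPM at E16. All E16 libraries lay below all E8 libraries. They lay above all E12 libraries, which the rule favours. The log2 fold change was -1.29 (SE 0.17, edgeR adjusted p of 5.9e-05).

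ENSGALG00000010533 was also lower at E16 than at E8. It had 232, 256 and 261 CPM at E8, 46.7, 42.3 and 39.3 CPM at E12, and 121, 137 and 97.1 CPM at E16. The E16 and E8 libraries did not overlap, and all E12 libraries lay below them, which the rule favours. E12 replicate 1 stood only slightly above the other E12 libraries. The log2 fold change of E16 against E8 was -1.08 (SE 0.14, edgeR adjusted p of 3.3e-05).

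**Figure D5:**
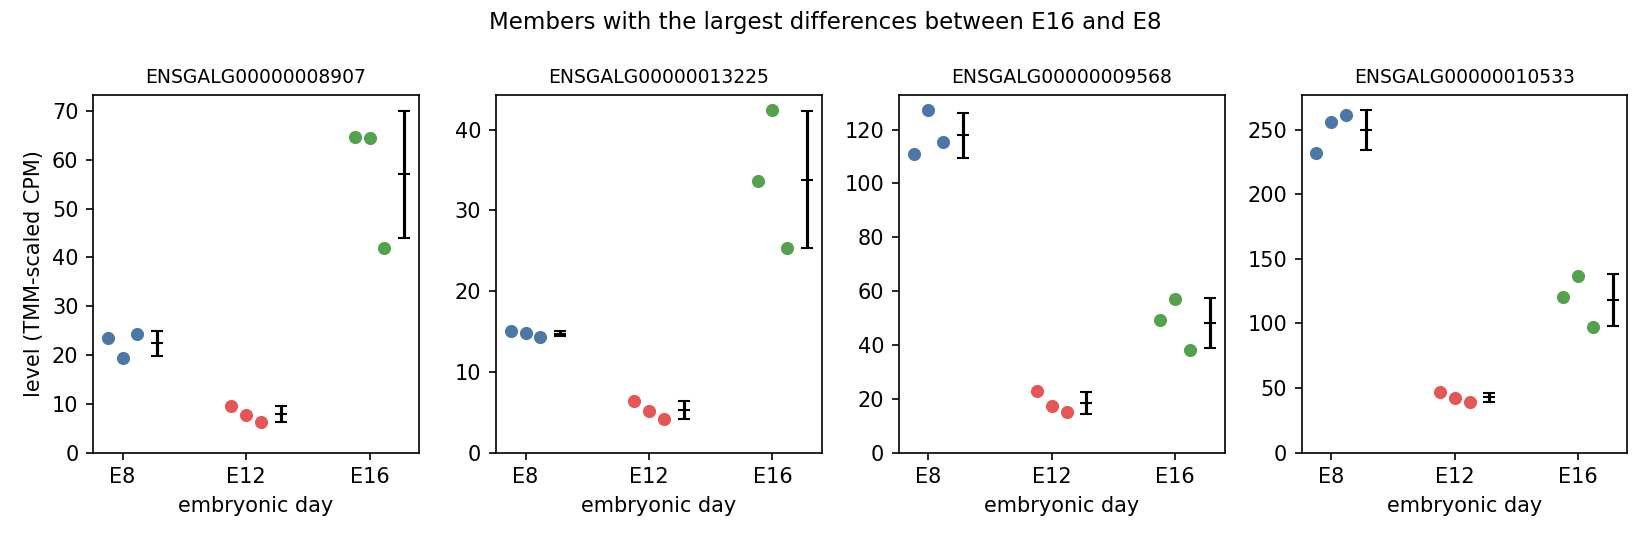
TMM-scaled CPM of 4 members in the 3 libraries of each stage, with the mean and SD beside the points. The first 2 genes were higher at E16 than at E8 and the last 2 lower. All 4 were lowest at E12, as the rule requires.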

How the data were processed

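Poly(A)-selected RNA was sequenced with paired 150-base reads in 1 lane, per the labels' protocols. The deposited values are raw counts for each Ensembl gene ID in 9 libraries, not normalized by the authors. The submitters' processing notes name HISAT2 2.2.1, HTSeq 0.13.5, cutadapt 3.1 and the build GRCg6a. The annotation release and strand setting are not given in the sources used here, so genes that overlap, lie antisense to each other or have a near-identical copy may share reads. The 5 rows of reads assigned to no gene include those outside features, 17.7% of all reads on average. These rows were kept out of library sizes and were not tested as genes. In the tests, the percentage outside features entered only an alternative fit, as a covariate.

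Groups came from the sample titles. A table of 25635 RefSeq genes matched 0 of the 24356 IDs, so symbols, positions and sequences were not used here and the planned lists by symbol were not applied. The 148 genes and the lists were chosen with earlier results of these data known. Stage means were fitted to all 9 libraries with edgeR 4.0.16 in R 4.3.3 (filterByExpr, TMM factors, robust quasi-likelihood F-test, Benjamini-Hochberg adjustment, adjusted p under 0.05). Standard errors are the absolute log2 fold change over the square root of F, and 95% intervals use the fit's degrees of freedom. Since no member had a symbol, named genes are the 2 members with the largest rise and the 2 with the largest fall in E16 against E8. Replicate pairs differed by more than sampling noise (chi-square per degree of freedom of 8.17 to 78.8), and each library counted once. Alternatives were DESeq2 1.42.0, limma-voom (limma 3.58.1), other scaling, filters, folds and levels, each library left out, the replicate number as a block, and the percentage of reads outside features as a covariate.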

Additional observations from a re-analysis of the deposited data

Results flagged for a closer look

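Reads that the counting assigned to no gene were present in categories that the main gene comparisons do not use. As means over the 9 libraries and in percent of all reads, those outside annotated features came to 17.7%, and unaligned reads to 7.47%. Reads with low alignment quality came to 5.09%, reads overlapping several genes to 2.29% and reads aligned to more than 1 place to 2.17%.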

How the results depend on the processing

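The number of genes meeting the rule was 267 with total counts only, 226 with stage medians, 429 at a fold of 2, 53 at a fold of 3, 97 at a level of 20 CPM and 17 with every E12 library set against each other library. It was 194 at a level of 5 CPM. With a filter of 1 count in place of the CPM filter it was 113, all among the 148. The TMM factors were computed anew from the genes that passed this filter, so the scaling changed with it. With each library left out it ranged from 83 (without E12 replicate 3) to 319 (without E12 replicate 1), and 82 and 140 of these were among the 148. The members called in E16 against E8 numbered 41 (29 higher) with the E16 and E8 libraries only, 27.7% against 55.2% of all genes, and 32 (21 higher) with the percentage outside annotated features as covariate, 21.6% against 54.5%. With each library left out they ranged from 15 to 38 (10.1% to 25.7%, against 39.6% to 53.7% of all genes), those higher at E16 from 8 to 26 and those lower from 6 to 12. The cause was not tested. The median log2 fold change of the members lay between -0.15 and 0.15 over these fits. DESeq2 called 20 members (13.5%, against 50.5% of all genes) and limma-voom 21 (14.2%, against 49.6%). The 4 named members kept their direction and their call in all 18 alternatives.

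The deviations of same-numbered libraries of different stages correlated at -0.16 to 0.19 (9 pairs), against -0.38 to 0.29 for other numbers (18 pairs). Of the 9 libraries, 4 correlated best with their own number. So few libraries gave no sign that the numbers pair the samples, but they cannot exclude it. With the replicate number as a block, 21 members were called (14.2%, against 48.4% of all genes).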

Other observations

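Other genes shared the course of the 148 across the 9 libraries. The members' log2 CPM correlated with their own mean profile at 0.85 to 1.00 (Pearson, median 0.98), as their choice implies. Among 14024 genes outside the set, 183 reached 0.98 or more, at the members' median. The 5 nearest had smaller folds of 2.14 to 14.2. The deepest of them had a mean of 1.77 CPM at E8, below the level the rule asks for. Its E12 mean was 0.115 CPM, so its fold rests on a very low level. These correlations run over the same 9 libraries, which differ in stage and depth, and carry no test.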
